A study of Mus musculus with 3 samples.

Results

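Gene-rich stretches of the mouse autosomes in which no peak of 5-hydroxymethylcytosine (5hmC) was listed are described here. The autosomes were divided into windows of 100 kb from 3 Mb onward, and a window was chosen when it held the midpoints of 3 or more protein-coding genes and the midpoint of no peak. Of 24045 autosomal windows, 2368 were gene-rich in this sense, and 299 of these, or 12.6% (95% Wilson interval 11.3 to 14.0%), had no peak. They spanned 29.9 Mb and held 1262 of the 20556 autosomal protein-coding genes. The windows were chosen by the absence of peaks, so that absence is a description and no test was made of it.

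The series has 3 samples of mouse bone marrow cells, 2 of an acute myeloid leukaemia called NIDF-AML and 1 of normal bone marrow. The leukaemia cells were, per the labels, induced by FLT3-ITD and NPMc together with the mutants IDH2/R140Q and DNMT3A/R882H, and no allele or agent is named for the normal marrow. The sources used here give no strain, age or way of introducing the mutations. DNA with 5hmC was tagged with an azide glucose, coupled to biotin, captured on avidin and sequenced. The peak lists of both leukaemia samples were identical in all 223267 lines and were counted as 1 list of 208468 different intervals, 207188 of them on autosomes. In both lists, index 4 was the treatment library per the file headers, and the control was index 5 in one and index 6 in the other. Which samples these indexes belong to is not stated in the labels or headers, so the list, deposited for the leukaemia samples, may describe peaks of leukaemia or of normal marrow, and every count below holds for index 4 only. So leukaemia could not be set against normal marrow, whose own list was not analysed here, no value has a replicate, and read depth is unknown. A window without a peak is one in which the authors listed none over the control, which does not show that 5hmC was absent.

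5hmC is made from 5-methylcytosine by TET enzymes, and in mammals 5-methylcytosine lies mainly at CG dinucleotides. Peaks of 5hmC are known to gather in and around genes that a tissue uses. Some gene-rich stretches hold families with narrow use: olfactory and vomeronasal receptor genes are short, lie in clusters of near copies, and are used by sensory neurons of the nose, each of which expresses few of them.

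Most promoters of these windows were poor in CG dinucleotides, and a minority were not; both kinds are printed because the promoters differed in this from those of the gene-rich windows with peaks. Each line gives 300 bases of a RefSeq promoter of GRCm38.p6, 5′ to 3′, with every CG in capitals. It runs from 250 bases before to 50 bases after the gene start. That start is the annotated one, and whether it is a start of transcription was not tested. In Vmn1r175 the last 50 bases begin with atg, the letters of a start codon. For the 5 gene families with a line, the gene shown is the one whose CG content was nearest the median of its family in these windows. Olfr902, an olfactory receptor gene (chr9:38448542-38448841, plus strand), had 1 CG, Vmn1r175, a vomeronasal type 1 receptor gene (chr7:23809151-23809450, minus strand), had 2, and Defa21, which encodes an antimicrobial peptide of the gut (chr8:21025295-21025594, plus strand), had 1. Krtap19-2, a keratin-associated protein of hair (chr16:88874220-88874519, minus strand), had 2, and Lce3d, a protein of the cornified envelope of the skin (chr3:92957140-92957439, plus strand), had 1.
Olfr902: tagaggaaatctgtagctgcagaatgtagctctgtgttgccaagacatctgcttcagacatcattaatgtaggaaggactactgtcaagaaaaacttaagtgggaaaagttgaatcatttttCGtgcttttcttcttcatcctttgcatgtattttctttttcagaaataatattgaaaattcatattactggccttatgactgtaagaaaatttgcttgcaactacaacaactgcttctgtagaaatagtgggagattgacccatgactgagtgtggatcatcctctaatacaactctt
Vmn1r175: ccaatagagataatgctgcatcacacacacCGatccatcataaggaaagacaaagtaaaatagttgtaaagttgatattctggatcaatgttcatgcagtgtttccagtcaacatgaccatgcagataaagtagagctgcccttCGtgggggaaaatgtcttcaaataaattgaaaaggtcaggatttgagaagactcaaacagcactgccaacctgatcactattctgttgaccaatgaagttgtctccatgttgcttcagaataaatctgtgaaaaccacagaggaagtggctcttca
Defa21: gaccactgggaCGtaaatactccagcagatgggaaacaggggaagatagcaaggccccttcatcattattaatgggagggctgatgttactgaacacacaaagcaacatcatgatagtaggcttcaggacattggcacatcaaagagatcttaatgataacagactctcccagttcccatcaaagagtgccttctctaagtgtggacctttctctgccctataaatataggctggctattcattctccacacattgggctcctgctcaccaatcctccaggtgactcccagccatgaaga
Krtap19-2: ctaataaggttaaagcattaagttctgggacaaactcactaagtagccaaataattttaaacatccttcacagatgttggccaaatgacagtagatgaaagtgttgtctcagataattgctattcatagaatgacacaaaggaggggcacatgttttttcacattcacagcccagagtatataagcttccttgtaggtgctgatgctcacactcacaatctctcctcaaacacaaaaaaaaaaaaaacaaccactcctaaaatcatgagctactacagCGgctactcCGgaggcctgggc
Lce3d: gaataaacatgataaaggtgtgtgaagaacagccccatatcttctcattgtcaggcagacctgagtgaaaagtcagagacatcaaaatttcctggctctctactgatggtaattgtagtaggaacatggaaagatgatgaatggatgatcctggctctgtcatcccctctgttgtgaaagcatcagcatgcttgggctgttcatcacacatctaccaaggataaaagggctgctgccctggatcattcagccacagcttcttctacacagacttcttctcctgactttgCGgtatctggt

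The other kind is shown by 3 genes, chosen after their values were seen, from windows of this group outside the receptor, secreted and skin families. Chek1, a checkpoint kinase of the DNA damage response (chr9:36726609-36726908, minus strand), had 22 CG, Atp7b, a copper transporter (chr8:22060025-22060324, minus strand), had 26, and Hoxd3, a homeobox gene of body patterning (chr2:74711743-74712042, plus strand), had 20.
Chek1: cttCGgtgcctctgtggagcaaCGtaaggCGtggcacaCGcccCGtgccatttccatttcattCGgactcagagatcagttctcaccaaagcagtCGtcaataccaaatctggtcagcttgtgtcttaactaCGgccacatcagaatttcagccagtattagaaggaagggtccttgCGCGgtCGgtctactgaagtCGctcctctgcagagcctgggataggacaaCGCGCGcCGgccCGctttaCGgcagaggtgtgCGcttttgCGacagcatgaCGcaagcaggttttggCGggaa
Atp7b: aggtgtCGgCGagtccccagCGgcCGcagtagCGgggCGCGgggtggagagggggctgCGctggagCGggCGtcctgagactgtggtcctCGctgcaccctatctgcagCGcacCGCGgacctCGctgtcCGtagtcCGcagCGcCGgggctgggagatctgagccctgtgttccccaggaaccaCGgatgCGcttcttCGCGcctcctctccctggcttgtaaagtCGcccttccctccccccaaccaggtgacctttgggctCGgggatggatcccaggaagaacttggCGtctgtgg
Hoxd3: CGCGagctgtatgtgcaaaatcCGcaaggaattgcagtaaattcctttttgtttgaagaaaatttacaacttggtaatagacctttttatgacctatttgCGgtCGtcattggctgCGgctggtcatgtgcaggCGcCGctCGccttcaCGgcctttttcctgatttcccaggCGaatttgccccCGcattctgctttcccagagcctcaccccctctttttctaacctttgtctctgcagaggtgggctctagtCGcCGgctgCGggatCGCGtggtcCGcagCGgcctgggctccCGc

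Up to 3 genes, windows with more genes were less often without a peak, and windows with receptor genes were mostly without one at every gene number. Of the windows with 0, 1, 2 and 3 genes, 56.9%, 23.0%, 12.5% and 11.2% had no peak, and the share over all autosomal windows was 39.8%. With 4, 5 and 6 or more genes it was 13.6%, 15.3% and 13.2%, so it did not fall further. Chemosensory families (olfactory, vomeronasal, bitter taste, trace amine, Mas-related and formyl peptide receptors) were counted apart. Of the 335 gene-rich windows with at least 1 chemosensory gene, 197 (58.8%, Wilson interval 53.5 to 63.9%) had no peak, and of the 2033 without one, 102 (5.02%, 4.15 to 6.05%) had none. Of the 223 gene-rich windows whose genes were all chemosensory, 165 (74.0%) had no peak. The intervals treat windows as independent, which neighbouring windows of 1 gene cluster are not, and they cover counting error only.

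**Figure D1:**
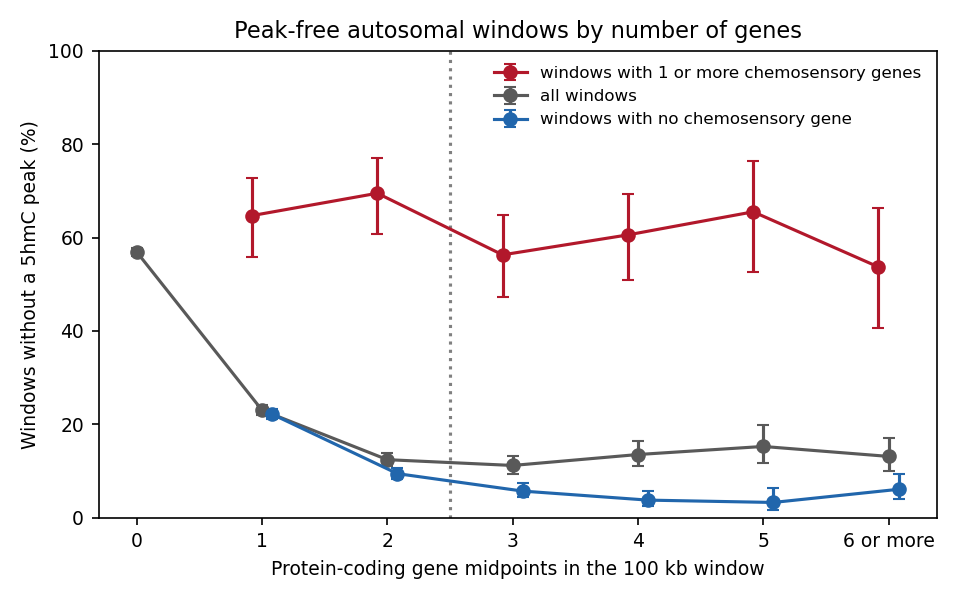
Share of autosomal 100 kb windows without a 5hmC peak (y axis, percent) by the number of protein-coding gene midpoints in the window (x axis), for windows with at least 1 chemosensory gene, all windows and windows with none; points are shares, bars 95% Wilson intervals, and gene-rich windows lie right of the dotted line. Windows with chemosensory genes stay above 50% at every gene number, while those with none fall to 3.29% at 5 genes and are at 6.11% at 6 or more.

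Chemosensory receptor genes made up 790 of the 1262 genes in the windows without a peak (62.6%), against 418 of the 8620 genes in the gene-rich windows with a peak (4.85%). Over all genes of gene-rich windows, 12.8% lay in a window without a peak, and the counts of each family are read against that share. Of 990 olfactory receptor genes in gene-rich windows, 643 (64.9%) lay in a window without a peak, spread over 153 windows and 13 chromosomes. Of 154 vomeronasal type 1 receptor genes, which sense pheromones, 115 (74.7%) did, and of 15 vomeronasal type 2 receptor genes 11 did. Of 27 bitter taste receptor genes, 21 (77.8%) did, all on chromosome 6.

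Other clustered families came next, and most encode proteins of epithelia and secretions. All 27 alpha-defensin genes in gene-rich windows lay in a window without a peak, as did 33 of 38 cornified envelope genes (86.8%), 37 of 53 keratin-associated protein genes (69.8%), 9 of 12 genes of the prolactin family, most of them hormones of the placenta, and 7 of 9 secretoglobin genes. Clustered protocadherins, adhesion proteins that neurons use to tell each other apart, contributed 31 of 55 genes, all on chromosome 18. Smaller counts came from 10 of 33 beta-defensin genes, 10 of 52 keratin genes, 10 of 22 Pramel genes, 9 of 38 Ly6 and Lypd genes, 7 of 24 serpin genes, 7 of 15 lipocalin and exocrine peptide genes and 5 of 12 casein and salivary genes. Zfp zinc finger genes, which also lie in clusters, had 8 of 223 genes in a window without a peak (3.59%), below the share of all genes. Predicted genes with a Gm symbol had 139 of 428 (32.5%), and 16 of these lie in 1 window with Krtap20-2; the symbol does not give their family.

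**Figure D2:**
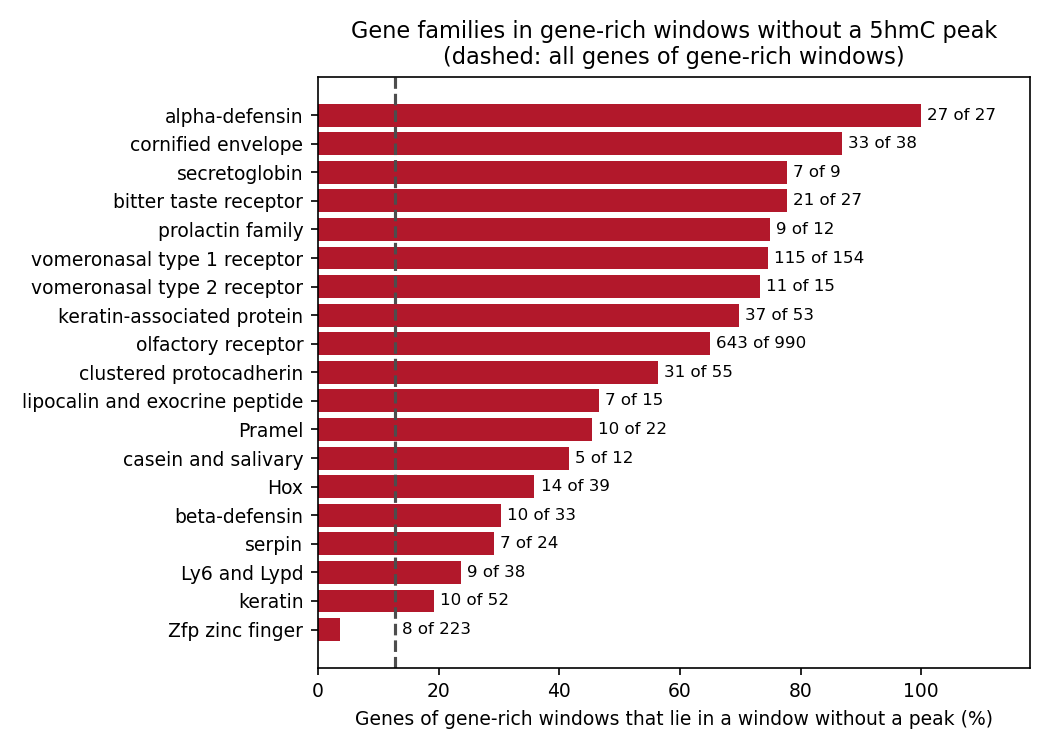
Share of each family's genes in gene-rich windows that lay in a window without a 5hmC peak (x axis, percent), for listed families with at least 5 such genes; labels give the 2 counts and the dashed line marks 12.8%, the share of all genes of gene-rich windows. Groups of clone or model symbols such as Gm, which give no family, are not drawn. Alpha-defensins reach 100%, and of the families drawn only the Zfp zinc finger genes lie below the line.

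Families that every cell uses had no gene in these windows. None of the 265 genes of the core histone, cytosolic and mitochondrial ribosomal, oxidative phosphorylation and proteasome families that lay in gene-rich windows was in a window without a peak. Of the 6362 genes in gene-rich windows that belong to no listed family, 56 (0.880%) were. Of 74 marker genes of blood and other cell types found on autosomes, 44 lay in gene-rich windows, and 1 of these, the liver enzyme gene Cyp2e1, lay in a window without a peak, with the olfactory receptor gene Olfr541 and Syce1, a gene of meiosis. The 13 granulocyte and monocyte markers in gene-rich windows all had a peak in their window, and the median over the 20 markers of that type was 40 peaks per window. The 6 B lineage, 7 erythroid, 6 T and NK and 5 megakaryocyte markers in gene-rich windows also had one. A peak was not limited to windows of blood markers. The windows of the neuron marker Slc17a7 and the liver marker Apoa1 held 38 and 33 peaks. Those of the skin markers Krt14, Krt10 and Krt5 held 5, 3 and 1. Most other markers of these types lay in windows with fewer than 3 genes and few or no peaks. Over windows of any gene number, the median was 0 peaks for the 5 neuron markers, 1 for the 7 liver markers and 2 for the 4 skin markers. The window had no peak for 4, 3 and 1 of them.

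Several other clustered families had a peak in every gene-rich window. In 23 listed families, those of every cell included, 10 or more genes lay in gene-rich windows and none of them in a window without a peak. Among them were the 26 kallikrein genes, which encode secreted proteases, the 17 type I interferon genes, the 19 chemokine genes, the 19 Ms4a genes and the 14 granzyme and mast cell protease genes. The 15 trace amine-associated receptor genes were counted as chemosensory like the olfactory receptors, yet their 3 windows on chromosome 10 (23900001 to 24200000) held 4, 2 and 24 peaks. The first of these windows also held Vnn1, and the last also held Stx7, a gene of endosome fusion used in many cells. The interferon cluster on chromosome 4 held 5, 4, 27 and 8 peaks in its 4 windows (88500001 to 88900000). The window with 27 peaks held 1 listed interferon gene, Ifnz, with Klhl9 and genes with Gm symbols. Few of the genes themselves held a peak. In gene-rich windows, 1 of 17 type I interferon genes and 4 of 26 kallikrein genes had a peak in the body. Among all autosomal protein-coding genes, 30.6% had none there. For the kallikreins on chromosome 7, the 5 windows led by them from 43700001 to 44200000 held 3, 4, 6, 1 and 1 peaks, so 2 of them missed the rule by 1 peak.

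Most of the windows without a peak lay side by side. The 299 windows formed 169 runs of adjoining windows. Of these, 59 runs of 2 or more held 189 windows (63.2%), while 110 windows stood alone. The same share was not computed for gene-rich windows with a peak. Whether 63.2% is high for gene-rich windows was thus not tested. The longest run was on chromosome 2 (85700001 to 87400000): 17 windows in a row with 83 genes, from Olfr1009 to Olfr1122, all of them olfactory receptor genes. The window before it held 5 genes and 3 peaks, and the window after it 4 genes and 1 peak. From the last peak on its left (85699424) to the first on its right (87494960) there were 1796 kb with 87 genes, of which 86 were olfactory receptors and the other was Pramel7. The 25 windows before the run held 234 peaks, and the 25 after it, in which all but a few genes were again olfactory receptors, held 8.

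**Figure D3:**
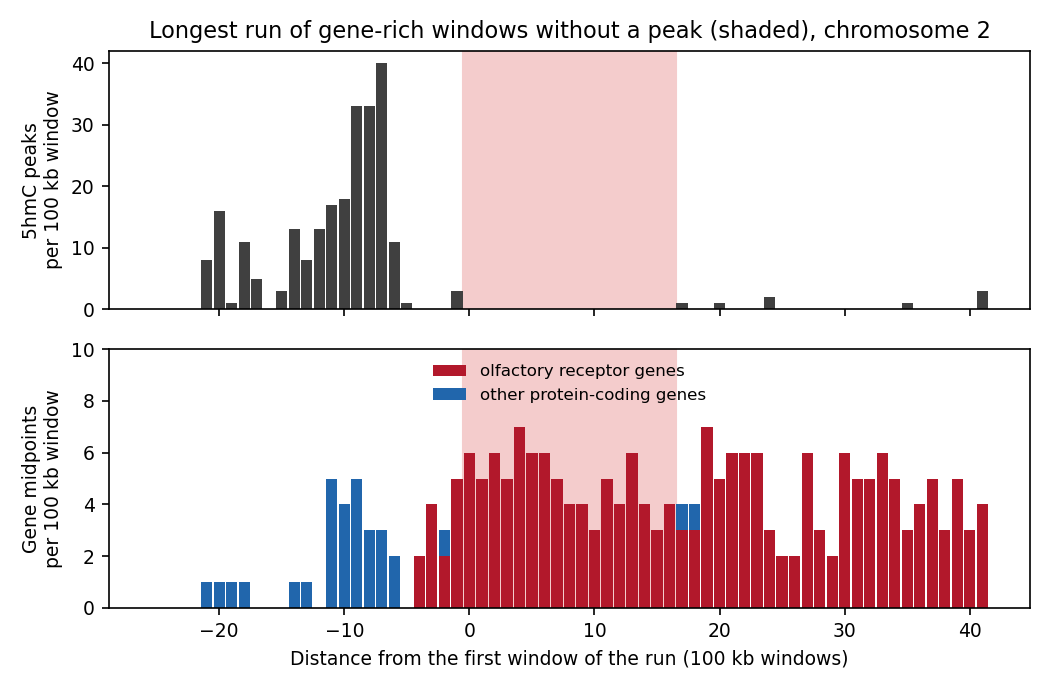
Peaks of 5hmC per 100 kb window (upper panel) and protein-coding gene midpoints per window (lower panel, olfactory receptor and other genes stacked) along the longest run, which is shaded, and 25 windows on each side; the x axis counts windows from the first of the run. Windows with other genes but no receptor hold up to 40 peaks, windows without a gene up to 13, and windows with receptors 0 to 3.

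Olfactory receptors led 11 of the 16 runs of 4 or more windows, and these 16 runs together held 92 windows and 416 genes. The second longest run had 9 windows and 40 genes on chromosome 9 (38000001 to 38900000), of which 39 were olfactory receptors and the other was Vwa5a. The third had 6 windows and 24 olfactory receptor genes on chromosome 19 (13300001 to 13900000). On chromosome 7, 5 windows (103200001 to 103700000) held 27 olfactory receptor genes with Usp17ld and Usp17lc, which encode ubiquitin proteases. On chromosome 17, 5 windows (37400001 to 37900000) held 20 olfactory receptor genes and H2-M2, a gene of the major histocompatibility complex. Vomeronasal type 1 receptors led 1 run of 4 windows on chromosome 6 (57000001 to 57400000), with 13 genes from Vmn1r6 to Vmn1r18.

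The remaining 4 runs of this length belonged to skin and gut families. Keratin-associated proteins led 5 windows with 28 genes on chromosome 16 (88600001 to 89100000), inside a stretch of 1348 kb between peaks. Late cornified envelope genes led 5 windows on chromosome 3 (92600001 to 93100000) with 23 of their 25 genes, and 2 further windows from 92300001 to 92500000 held 10 Sprr genes of the same envelope. Alpha-defensins led 2 runs of 5 and 4 windows on chromosome 8 (20900001 to 21400000 and 21500001 to 21900000), with 17 of 20 and 10 of 16 genes, and most of the others in the shorter run were beta-defensins. Both lay in 1 stretch of 1307 kb without a peak midpoint (20682430 to 21989212) that held 45 protein-coding genes. The window that separates the runs had fewer than 3 genes, so the rule and not a peak divided them.

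The 299 windows fell into 135 different stretches bounded by a peak on both sides, with a median of 403 kb. For 5 windows there was no peak on 1 side. Each stretch holds a whole window chosen for having no peak, so it must exceed 100 kb. A longer stretch is also more likely to hold such a window, so these lengths are a description. Of the 135 stretches, 19 were 1 Mb or longer. The autosomes held 3459 stretches of 100 kb or more, of which 244 were 1 Mb or longer. The longest of the 135 was 1945 kb on chromosome 8 (42851528 to 44796460), with 8 genes. Among them were Adam34 and Adam26a of a protease family of the testis and Zfp42, a marker of early embryonic cells. The nearest peak to a window lay a median of 112 kb from its edge, and at most 1642 kb. For 160 windows it was more than 100 kb away, and for 28 it was within 10 kb.

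Peaks were also few in the surroundings. In the 500 kb on both sides together, the median was 9 peaks for the windows without a peak, 16 of which had none there. In the gene-rich windows with a peak the median was 183, and 4 of 2069 had none there. These windows share their neighbours within a run, and the same list of peaks gave both the choice and the count, so this is a description.

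**Figure D4:**
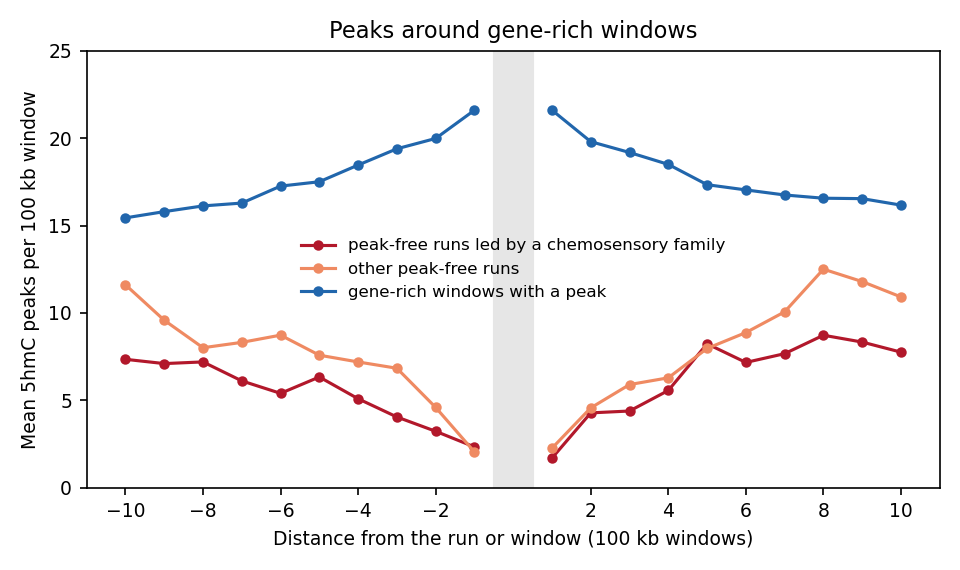
Mean number of 5hmC peaks per 100 kb window (y axis) by distance in windows (x axis) from peak-free runs led by a chemosensory family (94 runs), other peak-free runs (75 runs) and gene-rich windows with a peak (2069 windows). At 1 window the means are 1.70 to 2.34 around peak-free runs and 21.6 around gene-rich windows with a peak, and at 10 windows they are 7.35 to 11.6 and 15.4 to 16.2.

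The windows lay on all 19 autosomes but unevenly. Chromosomes 2 and 7 held 53 each, or 106 together, out of 230 and 276 gene-rich windows (23.0% and 19.2%). Chromosome 9 held 28 of 142 and chromosome 6 held 22 of 114. Chromosome 18 had the fewest gene-rich windows, 34, of which 7 were without a peak, and 0 of their 45 genes were chemosensory. Chromosome 1 had 2 of 105, and all 7 genes in them were chemosensory. On chromosomes 3, 8, 12 and 15 the windows without a peak also held 0 chemosensory genes, with 38 genes on chromosome 3 and 57 on chromosome 8.

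The windows with the most genes were not receptor windows. On chromosome 16 (89200001 to 89300000), 1 window held 17 genes, Krtap20-2 and 16 with Gm symbols, with peaks 15.7 kb before it and 29.8 kb after it. On chromosome 18, 1 window held 13 genes, 11 of them beta protocadherins (37400001 to 37500000), and another held the 11 genes from Pcdha1 to Pcdha11 (37000001 to 37100000). Both lay in a stretch of 540 kb without a peak midpoint (36975876 to 37515496), past which the gamma protocadherin windows held 4 and 16 peaks. Keratin-associated windows on chromosome 11 followed with 10 and 9 genes, and the olfactory windows with the most genes held 8 each, all on chromosome 7.

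Few genes of these windows had a peak beyond the window edge. Their median span was 974 bp, against 10622.5 bp for genes of the gene-rich windows with a peak. Of the 1262 genes, 1195 lay wholly inside their window, where the rule allows no peak midpoint. The low counts of peaks in the body are thus largely set by the rule. A peak in the body was present in 12 genes, since a long gene can extend beyond the window of its midpoint, and 16 had one in the body or within 5 kb. These 12 were 7 alpha protocadherins, whose shared last exons give them overlapping spans, 3 Gm models that overlap the protocadherin cluster with 19 peaks each, Obp2a and Cenpp. Among all autosomal protein-coding genes, 30.6% had no peak in the body and 23.9% none in the body or within 5 kb, and among those of gene-rich windows 23.5%.

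Promoters in the windows without a peak had fewer CG dinucleotides than those in other gene-rich windows. A promoter was found in the RefSeq table for 1025 of the 1262 genes. In gene-rich windows with a peak it was found for 7009 of the 8620 genes. The missing ones were uneven among the 1262. A promoter was found for 0 of the 31 clustered protocadherins and 5 of the 14 Hox genes. The values below therefore say little about these families. Observed over expected CG, a ratio that corrects for the number of C and G, had a median of 0.114 (quartiles 0 and 0.216) in the windows without a peak, against 0.621 (0.253 and 0.839) in the others. Median GC content was 37.3% against 57.3%. By a simple rule for letters like those of a CpG island (GC of at least 50% and a ratio of at least 0.6), 17 promoters (1.66%) passed in the windows without a peak and 3433 (49.0%) in the others. The sequence was not used to choose the windows, but neighbouring genes of a family are near copies and not independent, so no test was made.

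**Figure D5:**
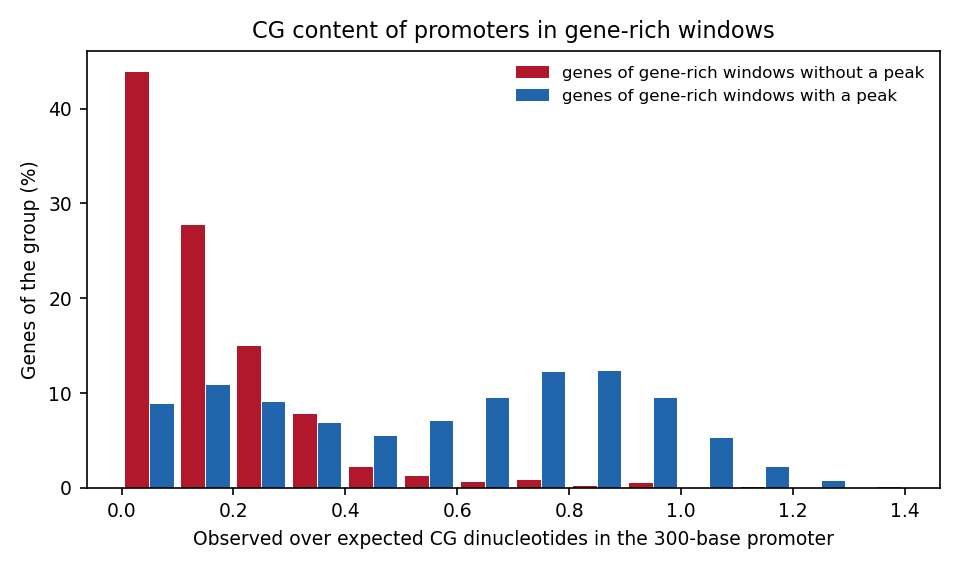
Distribution of observed over expected CG in the 300-base promoter (x axis, bins of 0.1) as the share of genes (y axis, percent), for 1025 genes of gene-rich windows without a peak and 7009 genes of gene-rich windows with a peak. In the windows without a peak 43.9% of genes lie below 0.1, and in the windows with a peak 8.89% do.

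The difference was also present outside the receptor families. Without the chemosensory families, the median ratio was 0.122 over 353 promoters of the windows without a peak, against 0.648 over 6653 promoters of the others. Promoter medians were 0.0618 for alpha-defensins, 0.0655 for cornified envelope genes, 0.171 for keratin-associated genes, 0.130 for bitter taste receptors and 0.251 for the prolactin family. Averaged per window over the 2274 gene-rich windows with a promoter in the table, a higher ratio went with fewer windows without a peak. Of those with a mean up to 0.1, 63.0% had no peak (114 of 181), then 43.3% up to 0.2, 29.9% up to 0.3, 5.81% up to 0.4 and 2.82% up to 0.5. From 0.5 to 0.6 it was 0 of 313, and above 0.6 it was 4 of 987 (0.405%). In windows with no chemosensory gene the order was alike, with 45.9%, 22.7%, 14.7%, 3.33% and 2.94% in the first 5 classes. At a mean ratio up to 0.1, windows with a chemosensory gene were without a peak in 74.8% of cases (Wilson interval 65.8 to 82.0%) and windows without one in 45.9% (35.1 to 57.2%).

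The TATA motif TATAAA, searched on both strands of the 300 bases, was in 447 of the 1025 promoters (43.6%), against 11.5% in the gene-rich windows with a peak and 13.5% of all 16456 autosomal promoters in the table. It was in 13 of 14 alpha-defensin promoters, as in Defa21 above, and in 28 of 36 keratin-associated promoters. Sequence with more A and T holds such a motif more often by composition alone, and a match is not a site. A run of 50 bases that also occurs in the promoter of another gene was found in 284 promoters (27.7%) of the windows without a peak, against 376 (5.36%) of the others. The share was 62.6% for vomeronasal type 1 receptors, 14.0% for olfactory receptors and 0 of 17 for bitter taste receptors. Reads that match several places can be lost in alignment, and the part this played in the absence of peaks was not tested.

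Non-coding genes differed as well. The windows without a peak held a mean of 1.27 annotated pseudogenes, against 0.534 in the gene-rich windows with a peak, and 65.6% held at least 1, against 37.4%. Long non-coding RNA genes went the other way, with a mean of 0.181 against 0.764 per window. MicroRNA genes lay in 4 of the 299 windows (1.34%) and in 283 of the 2069 others (13.7%). Of these 4, 3 lay in Hox clusters, and their mature 5p sequences from RefSeq are printed with the seed (bases 2 to 8) in capitals because the same microRNA sits in 2 of these clusters. Mir10b lies inside the annotated spans of Hoxd3 and Hoxd4 on chromosome 2, Mir196a-1 among Hoxb genes on chromosome 11 and Mir196a-2 among Hoxc genes on chromosome 15, and the last 2 give 1 mature sequence.
mmu-miR-10b-5p: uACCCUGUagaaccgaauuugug
mmu-miR-196a-5p: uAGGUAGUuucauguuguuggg

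Hox genes, which pattern the body axis and some of which are used by blood progenitors, gave 3 windows without a peak. These held Hoxb6 to Hoxb9 (chromosome 11, 96200001 to 96300000), Hoxc8 to Hoxc13 (chromosome 15, 102900001 to 103000000) and Hoxd1, Hoxd3, Hoxd4 and Hoxd8 (chromosome 2, 74700001 to 74800000). The next windows of the same clusters held 17 peaks at Hoxb1 to Hoxb5, 1 at Hoxc4 to Hoxc6 and 3 at Hoxd9 to Hoxd13 with Evx2. Neither Hoxa window was without a peak: they held 7 and 8. The 5 Hox promoters in the table had a median ratio of 0.805, among them Hoxd3 above with 0.920, Hoxd1 with 0.805 and Hoxb8 with 0.970, while Hoxd8 had 0.367 and Hoxd4 0.339.

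In 17 windows no gene symbol matched the lists used for the receptor, secreted, skin, immune, metabolic, germ line or zinc finger families. None was a clone or model symbol such as Gm. The lists go by symbol only, and several genes of these windows have such roles all the same, as described below. The 17 windows held 67 genes, and beside the 3 Hox windows and 2 protocadherin windows there were 12. Most of the 12 held genes of tissues other than blood. Kera, Epyc and Ccer1 on chromosome 10 (97600001 to 97700000) are led by proteoglycan genes of the cornea and cartilage, and their nearest peak lay 268 to 355 kb away. Rgr, Lrit1, Lrit2 and Cdhr1 on chromosome 14 (37000001 to 37100000) are genes of the retina, with the nearest peaks 30.8 kb before the window and 1018 kb after it, and 16 peaks in the 500 kb before it and 0 in the 500 kb after it. Mat1a, Sftpa1, Mbl1 and Sftpd (chromosome 14, 41100001 to 41200000) are genes of liver and lung surfactant. Hsd3b6, Hsd3b1 and Hao2 (chromosome 3, 98800001 to 98900000) are genes of steroid and hydroxyacid metabolism, Reg1, Reg2 and Reg3g (chromosome 6, 78400001 to 78500000) of pancreas and gut, and Hyal6, Hyal4 and Spam1 (chromosome 6, 24700001 to 24800000) of the hyaluronidase family, with Spam1 on sperm.

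The others of the 12 were Pdilt, Acsm5 and Acsm2 (chromosome 7, 119500001 to 119600000), Casp14, Ccdc105 and Slc1a6 (chromosome 10, 78700001 to 78800000) and Il1f5, Il1f6 and Il1f10 (chromosome 2, 24200001 to 24300000). The last are interleukin 1 relatives of the skin, and their window lay in the shortest stretch between peaks of all 135, 110 kb, with peaks 5.26 kb before it and 4.70 kb after it. Ecm2, Aspn and Omd, matrix protein genes, shared a window on chromosome 13 (49500001 to 49600000) with Cenpp, a centromere protein gene that is 189 kb long and had 1 peak in its body outside the window.

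The Chek1 and Atp7b windows held genes of cell division, protein glycosylation and copper transport, tasks that are not limited to 1 tissue. Chek1, Stt3a and Ei24 lay together on chromosome 9 (36700001 to 36800000). Stt3a encodes a catalytic subunit of the enzyme that attaches N-glycans to proteins, and Ei24 a protein of the endoplasmic reticulum. Their promoters had CG ratios of 0.958, 0.924 and 0.644, and the window had a mean of 0.842. The nearest peak to any of the 3 gene bodies was 235 kb from Chek1, 194 kb from Stt3a and 164 kb from Ei24. The stretch between peaks was 1075 kb long (35886172 to 36961444), with 0 peaks in the 500 kb on the left of the window and 23 on the right. The Atp7b window on chromosome 8 (22000001 to 22100000) also held Alg11, a mannosyltransferase of N-glycan assembly, and Nek5, a kinase gene, with a mean ratio of 0.602. It begins 10.8 kb after the peak that ends the alpha-defensin stretch, 3.57 kb from Atp7b, and the 500 kb on its right held 74 peaks. Together with the Hoxb and Hoxd windows, these were the 4 windows without a peak at a mean ratio above 0.6. The mean of the Hoxb window rests on 1 promoter and that of the Atp7b window on 2.

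Olfactory windows with peaks show where the rule divides a cluster. Of 213 windows with 3 or more olfactory receptor genes, 143 had no peak and 70 had 212 peaks in all. Of these 70, 37 had 1 peak and 11 had 5 or more. Another protein-coding gene was present in 11 of the 143 windows without a peak (7.69%) and in 21 of the 70 with one (30%). The most peaks, 18, were in the window of Olfr56, Olfr1394, Olfr1395, Olfr1396 and Btnl9 on chromosome 11 (49100001 to 49200000), and 1 of them lay in a receptor gene. The next, with 15, held Rrm1, a subunit of ribonucleotide reductase, with Olfr543, Olfr544 and Olfr545 on chromosome 7. Of the 212 peaks, 20 lay in receptor genes, or 9.43% (Wilson interval 6.19 to 14.1%), and receptor genes covered 6.91% of these windows. Olfactory receptor promoters had a median GC of 34.0% in the windows without a peak and 38.3% in the gene-rich windows with one, and a median CG ratio of 0.103 and 0.122. For vomeronasal type 1 receptors the CG ratio was higher in the windows without a peak, 0.167 over 107 promoters, against 0.112 over 30 in the gene-rich windows with one. Within these 2 families the ratio thus differed far less between the window groups than over all genes.

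The edge of the rule can be read from the counts beside it. Of the gene-rich windows, 108 had exactly 1 peak and 54 exactly 2, where the median over all gene-rich windows with a peak was 21. In the 108, 182 of 413 genes (44.1%) were chemosensory. The windows with 1 peak and the most genes were one with 15 genes on chromosome 10 (77700001 to 77800000), which were Tspear, Krtap12-1 and 13 with Gm symbols, and one with 8 on chromosome 7 (142200001 to 142300000), which were Krtap5-1, Krtap5-3, Krtap5-5 and 5 with Gm symbols. On the other side, 295 of the 2369 windows with exactly 2 genes had no peak, among them 1 with Sdhaf4 and Fam135a on chromosome 1 (24000001 to 24100000). Of the 299 windows, 123 had exactly 3 genes, 82 had 4 and 46 had 5.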

How the data were processed

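The deposited files are peak lists with a chromosome, start and end per line and no score. PICS was the authors' peak caller, per the file headers, run for reads of 99 bp and fragments of 200 bp. Its search window was 250 bp wide and slid by 20 bp, and it needed 3 reads in a window and 10 in a region. The build is mm10, per the submitters' processing notes, and no aligner is named in the sources used here. Repeated lines were counted once. Genes and promoters came from RefSeq for GRCm38.p6, the assembly behind mm10, and genes that start below 3 Mb were left out. Peaks and genes were assigned to windows by their midpoints with Python 3.11.15, pandas 2.3.3 and scipy 1.17.1, and the window code was tested on simulated data. Families were defined by gene symbol. The windows, families and markers were chosen with earlier results of these data known. The first listed promoter of each gene was used.

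Named are the windows with the most genes, runs of 4 or more, families with 5 or more genes, windows outside most family lists, family windows with most peaks and windows at the edge of the rule. Other gene minimums, window sizes, window starts and gene models were tried. Identity of proteins was planned and replaced by shared promoter runs of 50 bases, chosen after the data were seen.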

Additional observations from a re-analysis of the deposited data

How the results depend on the processing

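With 2 genes in place of 3, 594 windows had no peak, and with 4 genes 176 did, against 299. The share of gene-rich windows without a peak was 12.6%, and it was 17.2% in 50 kb windows and 8.01% in 200 kb windows. The chemosensory share of genes, 62.6%, was 50.8% with 2 genes, 67.4% with 4 genes, 58.6% in 50 kb windows and 54.5% in 200 kb windows. It was 72.9% without genes whose symbol gives no family and 66.5% with only genes that have a curated transcript, both chosen after the data were seen. The share of windows in runs was 63.2%, and 45.2% in 50 kb windows. With windows shifted by 50 kb, 310 had no peak, and 886 of the 1262 genes were again in one. With no peak allowed within 10 kb, 271 windows remained. The promoter ratio, 0.114, was 0.114 with only genes wholly inside their window and 0.122 without chemosensory families. With repeated lines kept, or with any overlap of a peak counted, the number of windows and the 3 shares were unchanged. With gene starts in place of midpoints, 306 windows had no peak. Without either replicate the values were the same, 299 windows, 12.6%, 62.6% and 63.2%, because the lists are identical, which says nothing about stability. No paired analysis was possible because normal marrow has 1 sample, its list was not analysed here and no test was made. Identity of proteins was not run. Read depth is unknown, so a missing peak cannot be told apart from one below the limit of calling. Assembly gaps inside windows and the alignment of near-identical copies were not tested.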
